A study of Mus musculus with 27 samples.

Results

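The T cell-rich regions were the 9 regions with the highest T cell score among 27 tumour regions, and the T cell-poor regions were the 9 with the lowest, so 18 of the 27 were compared. The regions were chosen by a measured value: the score was the mean log2 value of Cd3d, Cd3e, Cd3g, Trac, Cd8a and Nkg7 in the region, minus the mean score of its label group. Liver metastases had been grown in two-month-old C57BL/6 mice by injecting MC38 cells, a mouse colon carcinoma line, into the portal vein. The cells carried either an shRNA against CMTM6 (13 regions) or a nontargeting shRNA (14 control regions). Regions were measured by GeoMx with probes against the mouse transcriptome: light releases the probe tags from a chosen area of a section, and the tags are sequenced. They were the part of each area outside the desmin-positive cells, and such a segment holds tumour cells together with whatever immune, endothelial or liver cells lie among them. The T cell-rich set held 4 knockdown-labelled and 5 control regions, and the T cell-poor set held 6 knockdown-labelled and 3 control regions. The study used 3 mice per group, and which mouse a region came from is not in the labels. Some regions therefore shared an animal, and the p-values and SEs given here are too small.

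T cells recognize peptides held on MHC molecules through the T cell receptor, which signals through the CD3 chains. CD8 T cells kill by releasing granules, a trait they share with natural killer (NK) cells. Activated T cells secrete interferon gamma, which raises MHC genes and the chemokines that draw in further T cells, and chronically stimulated T cells carry inhibitory receptors such as PD-1. In tissue short of oxygen, cells switch on hypoxia genes and draw more of their energy from glycolysis.

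The 6 genes that chose the regions are given as a description. Values are in the common-scale unit, the deposited signal after each region was set to a median over genes of 237, and "centred" values are log2 values minus the mean of the label group. The centred score was 0.14 to 0.66 in the T cell-rich regions (median 0.23) and -0.38 to -0.18 in the T cell-poor regions (median -0.25). Next to the limits, region 1 had the lowest score of the rich set at 0.14 and region 24, outside it, had 0.11. Region 26 had the highest score of the poor set at -0.18 and region 5, outside it, had -0.14. The scores thus ran on without a gap, and the sets are the ends of a range rather than separate kinds of region. Trac, the constant part of the T cell receptor alpha chain, had 308 to 748 units in the rich regions (median 349) and 152 to 353 units in the poor regions (median 284), a difference of 0.86 between the centred means. The corresponding differences were 0.42 for Cd3d, 0.43 for Cd3e and 0.55 for Cd3g, the CD3 chains, 0.52 for Cd8a and 0.57 for the granule gene Nkg7. The centred values of each of the 6 genes did not overlap between the sets, as their use in the rule favours. Region 23, knockdown-labelled, stood above the other rich regions in Cd3d, Cd3e and Trac. The mean log2 level of Cd3d was below the limit for a gene above background (7.63, percentile 95 of 1125 chemosensory receptor genes taken as background). Of the other genes given below with values, Trbc1, Cd4, Cst7, Xcl1, Gzmb, Ifng, Tox, Foxp3, Cxcr6, Cd83, Ltb, Clec9a, Jchain, Cyp2e1 and Kdr were also below it.

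**Figure D1:**
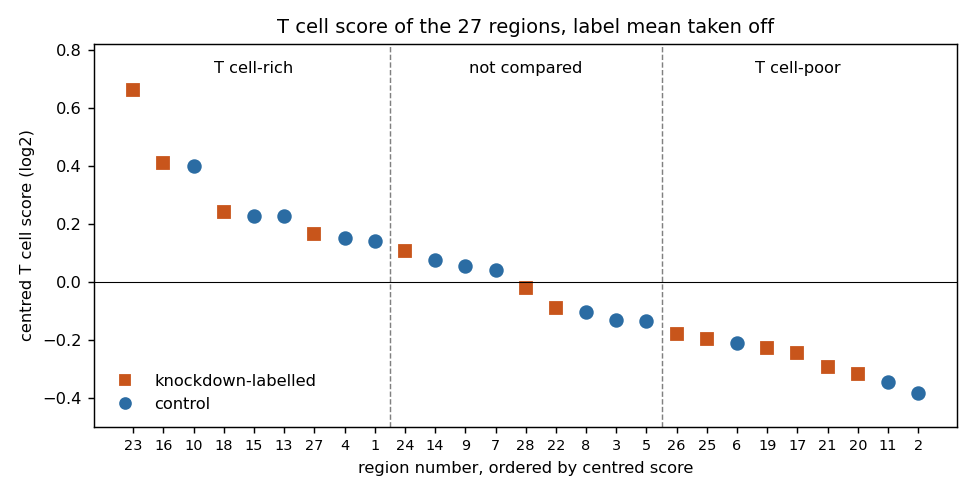
Centred T cell score (log2, y axis) of each of the 27 regions, ordered from highest to lowest (x axis, region number), with squares for knockdown-labelled and circles for control regions. Dashed lines separate the 9 T cell-rich regions, the 9 regions not compared and the 9 T cell-poor regions; region 23 has the highest score, 0.66.

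The depth of a region moved with its set in part. Deposited values came in whole steps whose size differed between regions, and depth was counted as the total number of steps. Among the knockdown-labelled regions the total was 7650746 to 10484973 steps in the 4 rich regions and 10513712 to 19827296 steps in the 6 poor regions, so each rich region lay below each poor one. Among the control regions it was 12992392 to 20966686 steps in the 5 rich regions and 12073251 to 25209345 steps in the 3 poor regions, which overlapped. The background receptor genes stood at -0.96 to -0.76 on the log2 scale relative to the region's median gene in the rich regions (median -0.89) and at -0.98 to -0.79 in the poor regions (median -0.83). Fits with the log2 total as a covariate are given below. Without the 3 regions of lowest total among the 18 compared, 28 genes were higher, among them Thy1 and Ctsw. These 3 were all knockdown-labelled and T cell-rich, and the alternative was chosen after the data were seen. It left region 23, the highest in score, as the only knockdown-labelled T cell-rich region. Cmtm6, the targeted gene, had a rich-minus-poor log2 difference of 0.12 (SE 0.09, limma adjusted p = 0.853). It had 417 to 722 units in the 13 knockdown-labelled and 511 to 701 units in the 14 control regions. These ranges overlapped, so the regions are called knockdown-labelled.

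**Figure D2:**
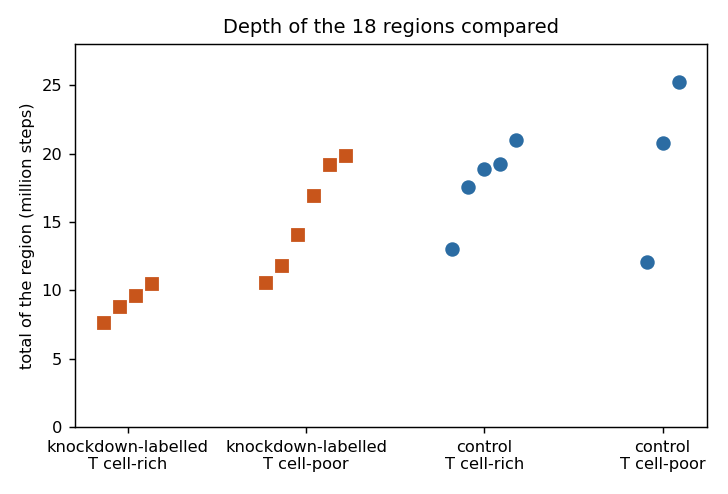
Total number of steps of each of the 18 regions compared (y axis), by label and set (x axis). The knockdown-labelled T cell-rich regions lie at 7650746 to 10484973 steps, below the knockdown-labelled T cell-poor regions, whereas the control sets overlap.

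Across the 19609 other genes, Thy1 and Ctsw rose in the T cell-rich regions and 0 genes fell (limma with label as a covariate, adjusted p under 0.05; 0.0102% and 0% of genes tested). Thy1 is a surface glycoprotein of mouse T cells that some fibroblasts also carry, and its gene lies on chromosome 9, 44043384 to 44048579 on GRCm38. It had 407 to 705 units in the rich regions (median 496) and 237 to 514 units in the poor regions (median 394). Its centred log2 values were 0.00 to 0.64 in the rich regions and -0.56 to 0.06 in the poor regions. The sets overlapped at their edges, and the log2 difference was 0.59 (SE 0.09, limma adjusted p = 0.0108). Ctsw encodes the cathepsin of killer lymphocytes and lies on chromosome 19, 5465043 to 5468507 on GRCm38. It had 218 to 324 units in the rich regions (median 254) and 195 to 244 units in the poor regions (median 224), a log2 difference of 0.35 (SE 0.05, limma adjusted p = 0.0108). Its centred values did not overlap, at -0.03 to 0.31 in the rich and -0.27 to -0.08 in the poor regions. Ptpn22 was the other gene whose centred values were higher in every rich region than in any poor one. Such genes were 2 of 19609 (0.0102%), against 0 (0%) in the opposite direction. The differences of Thy1 and Ctsw were positive within each label, at 0.49 in knockdown-labelled and 0.73 in control regions for Thy1 and at 0.41 and 0.27 for Ctsw. The calls of both ended without region 23 (limma adjusted p = 0.0571 for each). They also ended with the log2 total as a covariate, where the differences were 0.59 and 0.31 (limma adjusted p = 0.111 and 0.133). Under the deposited scaling the adjusted p in limma was 0.0588 for each, and under housekeeping scaling it was 0.241 for Thy1 and 0.618 for Ctsw. Each was called in 17 of 25 alternatives. Of these, the score of 4 T cell receptor genes and the score minus the background genes chose the same 9 and 9 regions. They therefore repeat the main fit and add nothing to the count.

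The next genes by p above background did not pass the test. Prkch, a protein kinase C of T cells, had 231 to 363 units in the rich regions (median 313) and 194 to 301 units in the poor regions (median 230), a log2 difference of 0.39 (SE 0.07, limma adjusted p = 0.0504). Ptpn22, a phosphatase that restrains T cell receptor signalling, had 259 to 382 units in the rich regions (median 300) and 205 to 303 units in the poor regions (median 241), a log2 difference of 0.36 (SE 0.07, limma adjusted p = 0.0504). Dock2, a Rac activator needed for lymphocyte migration, had 635 to 865 units in the rich regions (median 698) and 470 to 701 units in the poor regions (median 596), a log2 difference of 0.34 (SE 0.06, limma adjusted p = 0.0504). The 5 genes after them above background were the nuclear pore gene Nup210 (0.45), the integrin chain gene Itgal (0.41), which encodes part of LFA-1, Arhgap45 (0.34), Gas1 (0.89) and the adhesion receptor Cd2 (0.36), each at limma adjusted p = 0.0945. Gas1, a growth-arrest gene that is not a lymphocyte marker, had 332 to 764 units in the rich regions (median 535) and 207 to 481 units in the poor regions (median 259). The control region 11 was the highest of the poor regions, and the next, control region 2, had 298 units.

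**Figure D3:**
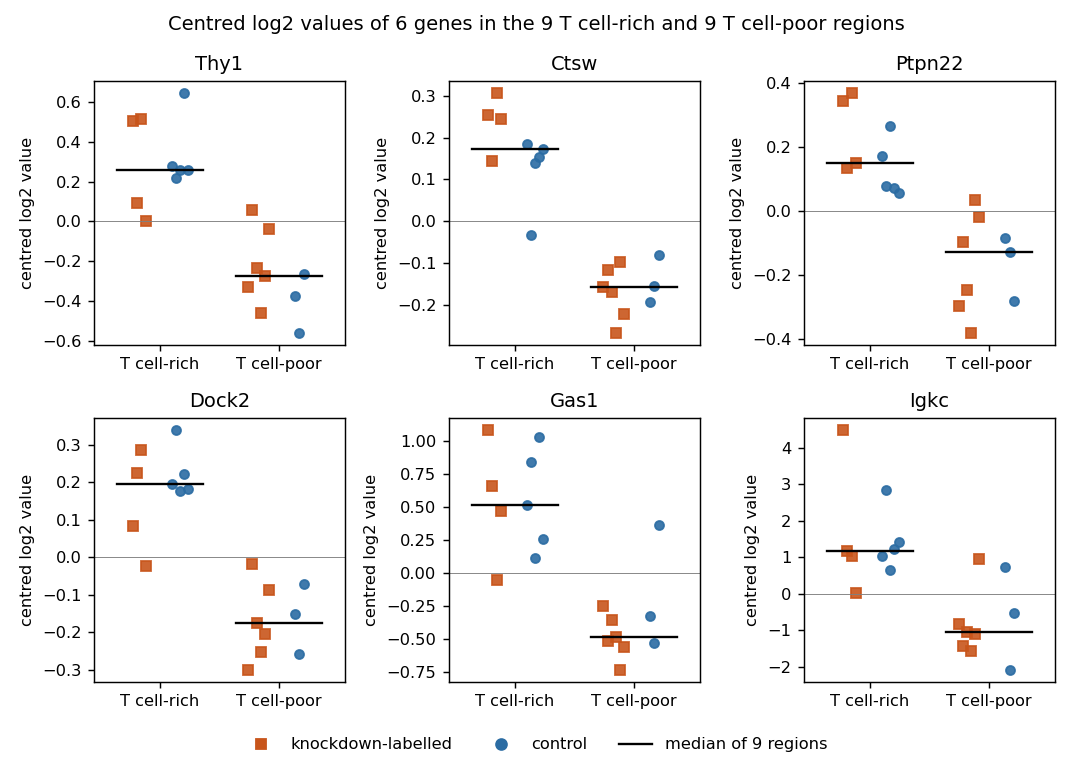
Centred log2 values (y axis) of Thy1, Ctsw, Ptpn22, Dock2, Gas1 and Igkc in the 9 T cell-rich (left) and 9 T cell-poor (right) regions. Each point is a region, squares are knockdown-labelled and circles control, and the bar is the median of the set; the sets do not overlap for Ctsw and Ptpn22 and overlap for the other genes.

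The score was also used as a continuous variable over all 27 regions, an alternative that draws on the regions between the sets. In this fit 47 genes rose with the score (0.24% of genes tested) and 6 fell (0.0306%; limma with label as a covariate, adjusted p under 0.05), again in the libraries that gave the score. Among the genes that rose, named here after their values were seen, was Il2rb, a chain of the interleukin 2 receptor, with a slope of 1.11 log2 units per unit of score (SE 0.15, limma adjusted p = 8.09e-05). Others were the T cell receptor beta chain gene Trbc1 (slope 0.86, limma adjusted p = 0.00113), the kinase gene Lck (slope 0.58, limma adjusted p = 0.00304) and the inhibitory receptor gene Lag3 (slope 0.66, limma adjusted p = 0.0215). Genes that rose and were named by the rule included Thy1, Ctsw, Cd2, Nup210, Prkch, Ptpn22, Itgal, Tigit, Pdcd1, Cst7, Klrd1 and Ighm. The genes that fell were Ptgr1, Xpo7, Sanbr, Wipi1, Nudcd2 and Mtif2, none of which is in a list used here. Without region 23 the counts were 20 higher and 2 lower, and with the log2 total as a covariate they were 43 and 1.

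Genes of T cells outside the score were higher on the whole. Of 44 other T cell genes, 1 rose (Thy1), 0 fell and 43 did not pass the test, and 42 had positive differences. Over all 19609 genes, 6338 had positive and 13271 negative differences, the base for this and later counts of signs. At an unadjusted p under 0.05, 25 of the 44 were higher and 0 lower, beside 384 higher (1.96%) and 804 lower (4.1%) of all genes tested. Their median log2 difference was 0.20, beside -0.04 over all genes. These genes are expressed in the cells that carry the score genes, so they are not independent of the rule. Il2rb had 301 to 640 units in the rich regions (median 348) and 164 to 429 units in the poor regions (median 263), a log2 difference of 0.61 (SE 0.14, limma adjusted p = 0.222). Ptprc, the pan-leukocyte phosphatase CD45, had a difference of 0.37 (limma adjusted p = 0.331), Cd52 had 0.35 (limma adjusted p = 0.224), and the coreceptor gene Cd4 had 0.14 (limma adjusted p = 0.798). With the log2 total as a covariate 20 of the 44 were higher at an unadjusted p under 0.05, beside 367 of all 19609 genes. Without region 23, 22 of the 44 were higher at that p. In that fit 961 of all 19609 genes were past it in either direction, beside 1188 in the main fit. In such segments, fewer T cells and less RNA per T cell cannot be told apart.

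Of 30 cytotoxic and NK cell genes, 1 rose (Ctsw) and 0 fell, and 27 had positive differences. At an unadjusted p under 0.05, 6 were higher and 0 lower, beside 1.96% and 4.1% over all genes. The median log2 difference was 0.09, at 0.03 in knockdown-labelled and 0.21 in control regions, where 3 and 15 of the 30 were higher at that p. Over all genes, 618 and 1334 of 19609 were past that p in either direction in these label groups, so the base count differed too. Whether this list differed from the other T cell genes was not tested. Cst7, an inhibitor of granule cathepsins, had 178 to 245 units in the rich regions (median 199) and 135 to 197 units in the poor regions (median 164), a log2 difference of 0.34 (SE 0.08, limma adjusted p = 0.186). The NK receptor gene Klrd1 had 0.29 (limma adjusted p = 0.498) and Xcl1, a chemokine that attracts cross-presenting dendritic cells, had 0.35 (limma adjusted p = 0.75). The granzyme gene Gzmb and the interferon gamma gene Ifng had differences of 0.16 and 0.09 (limma adjusted p = 0.926 and 0.918). Gzmb had 137 to 329 units in the rich regions (median 168) and 91.1 to 460 units in the poor regions (median 206), and its difference was -0.30 in knockdown-labelled and 0.75 in control regions. In control regions its readings were 137 to 255 units in the 5 rich and 91.1 to 120 units in the 3 poor regions. These did not overlap, but the share of all genes without overlap in these few regions was not counted. In knockdown-labelled regions its readings were 149 to 329 units in rich and 122 to 460 units in poor regions.

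Of 18 genes of regulatory T cells and checkpoint receptors, 0 passed the test in limma, and the median was 0.15. At an unadjusted p under 0.05, 7 were higher and 0 lower, beside 1.96% and 4.1% over all genes. Entpd1, the ectonucleotidase CD39, had 311 to 642 units in the rich regions (median 433) and 264 to 509 units in the poor regions (median 364), a log2 difference of 0.40 (SE 0.08, limma adjusted p = 0.12). Pdcd1, which encodes PD-1, had 203 to 313 units in the rich regions (median 256) and 185 to 238 units in the poor regions (median 211), a log2 difference of 0.30 (SE 0.07, limma adjusted p = 0.145). Tigit had 0.36, Lag3 0.36 and the exhaustion factor gene Tox 0.28 (limma adjusted p = 0.218, 0.593 and 0.393). Foxp3, the master regulator of regulatory T cells, had 0.09 at readings of 93.0 to 132 units in rich and 89.9 to 118 units in poor regions. Among 18 checkpoint ligand genes 0 passed in limma, with 2 higher and 1 lower at an unadjusted p under 0.05. Cd274 (PD-L1) had 560 to 1041 units in the rich regions (median 775) and 372 to 1664 units in the poor regions (median 655), a log2 difference of 0.21 (SE 0.26, limma adjusted p = 0.909). Pvr, the ligand of TIGIT, had -0.35 (limma adjusted p = 0.798).

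Genes for MHC class II molecules and for T cell chemokines were mostly higher in the rich regions without passing the test, with smaller medians in knockdown-labelled than in control regions. Of 15 MHC class II genes, 8 were higher and 0 lower at an unadjusted p under 0.05 (0 passed after adjustment in limma), beside 1.96% and 4.1% over all genes. The median log2 difference was 0.27, at 0.11 in knockdown-labelled and 0.48 in control regions. H2-Aa had 859 to 4312 units in the rich regions (median 2311) and 464 to 3147 units in the poor regions (median 2175), a log2 difference of 0.72 (SE 0.21, limma adjusted p = 0.53). H2-Ab1 had 0.70, the invariant chain gene Cd74 0.65, H2-Eb1 0.64 and the class II activator gene Ciita 0.31. The control region 11 was far below the other poor regions in H2-Aa, H2-Ab1 and Cd74, and without it 5 of 15 were higher at that p, with a median of 0.22. In that fit 1057 of 19609 genes were past that p in either direction, beside 1188 in the main fit. Of 26 T cell chemokine and receptor genes, 8 were higher and 0 lower, with a median of 0.20, among them Cx3cl1 (0.45), the receptor gene Cxcr6 (0.25), Ccl19 (0.23) and Ccl3 (0.41), at limma adjusted p = 0.279 to 0.614. The median of this list was 0.09 in knockdown-labelled and 0.27 in control regions. Cxcl12, a chemokine of stromal cells, had 0.57 (limma adjusted p = 0.816).

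Some markers of other leukocytes had positive differences in the same regions, and none passed the test. Of 32 macrophage and Kupffer cell genes, 6 were higher and 0 lower at an unadjusted p under 0.05, beside 1.96% and 4.1% over all genes. In the list 22 had positive and 10 negative differences, down to -0.37. The median was 0.11, at 0.15 in knockdown-labelled and 0.02 in control regions. The summed level was 57873 to 82639 units in rich and 59681 to 95718 units in poor regions. Aif1 (0.32), the oxidase gene Cybb (0.32) and the complement genes C1qa (0.36) and C1qb (0.31) had limma adjusted p = 0.409 to 0.796. With the macrophage list mean as a covariate, Thy1 and Ctsw no longer passed, with differences of 0.58 and 0.35 (limma adjusted p = 0.0586 for each). Of 18 dendritic cell genes 5 were higher and 0 lower, led by Cd83 (0.22), Ltb (0.28) and Clec9a (0.19), and of 14 neutrophil genes 0 were higher and 0 lower.

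The largest difference over all genes was that of Igkc, the constant part of the immunoglobulin kappa light chain, made by B and plasma cells. It had 293 to 6475 units in the rich regions (median 928) and 96.9 to 762 units in the poor regions (median 138), a log2 difference of 2.31 (SE 0.59, limma adjusted p = 0.393). Of the poor regions, the control region 2 and the knockdown-labelled region 26 had the highest readings, 762 and 561 units, and the other poor regions had 318 or less. Of the rich regions, knockdown-labelled region 16 had 6475 and control region 4 had 3269 units. Leaving out each region in turn gave differences of 1.81 to 2.59, and the difference was 2.51 in knockdown-labelled and 2.05 in control regions. Ighm, the heavy chain of IgM, had 288 to 693 units in the rich regions (median 388) and 203 to 407 units in the poor regions (median 303), a log2 difference of 0.66 (SE 0.20, limma adjusted p = 0.556). Jchain, which joins IgM and IgA units, had 181 to 609 units in the rich regions (median 228) and 121 to 206 units in the poor regions (median 156), a difference of 0.73 (SE 0.24, limma adjusted p = 0.675), again with regions 4 and 16 highest. Of the 14 B and plasma cell genes 4 were higher and 0 lower at an unadjusted p under 0.05, beside 1.96% and 4.1% over all genes, and 3 were above background. In the list 10 had positive and 4 negative differences, and the median was only 0.08. The B cell surface gene Cd22 had 0.25.

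The interferon lists had medians of opposite sign in the labels, and the gap between labels did not pass its test for any gene. Of 30 interferon gamma response genes 5 were higher and 0 lower at an unadjusted p under 0.05, and of 32 type I interferon response genes 0 and 0. Over all genes 1.96% were higher and 4.1% lower at that p. The median log2 difference of the interferon gamma list was -0.07 in knockdown-labelled and 0.66 in control regions, that of the type I list -0.23 and 0.69, and that of 18 MHC class I presentation genes -0.06 and 0.53. Irf7, a transcription factor of the interferon response, had differences of -0.27 in knockdown-labelled and 1.14 in control regions, Isg15 had -0.39 and 0.85, Cxcl10 had -0.13 and 1.51, and Cxcl9 had 0.03 and 1.35. The interferon gamma target Irf1 had 0.03 and 0.66, and B2m, whose product pairs with the class I heavy chain, had 0.07 and 0.61. The differences leaned on the control region 11, the lowest of the poor regions: without it the median over both labels was 0.13 for the interferon gamma list, -0.02 for the type I list and 0.08 for the class I list, beside 0.30, 0.17 and 0.23 with it. They moved the other way without the knockdown-labelled region 23, to 0.38, 0.32 and 0.26. In knockdown-labelled regions the mean centred log2 of the type I list was -0.63 to 0.39 in rich and -0.48 to 1.19 in poor regions. In control regions it was -0.14 to 0.52 in rich and -1.18 to 0.15 in poor regions, so the sets overlapped in both. The difference between labels was tested for each gene, and 0 of 19609 passed (0%; limma interaction, adjusted p under 0.05). At an unadjusted p under 0.05, 592 did (3.02%), among them 12 of the 32 type I genes, 6 of the 18 class I genes and 4 of the 30 interferon gamma genes. So did 9 of the 32 macrophage and Kupffer genes and 6 of the 26 T cell chemokine and receptor genes. The chemokine gene Ccl2, at -0.47 in knockdown-labelled and 0.75 in control regions, had an interaction p of 0.000467 in limma before adjustment. With the log2 total as a covariate the medians over both labels were 0.47 for both interferon lists and 0.46 for the class I list. In that fit 13 of the 18 class I genes were higher at an unadjusted p under 0.05, beside 367 higher and 584 lower of 19609 genes. The median of the other T cell list was 0.20 with and without the covariate. Each knockdown-labelled rich region had a lower total than each knockdown-labelled poor one, so depth and set cannot be told apart there.

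Interferon gamma acts through the GAS element (TTCNNNGAA) and type I interferon through the ISRE, a pair of GAAA boxes 2 bases apart. Both were searched on both strands from 250 bases before to 50 after each RefSeq start site (GRCm38.p6). A GAS match was found in 10 of the 21 interferon gamma genes with a promoter entry (47.6%), in 5 of 23 type I genes (21.7%) and in 9.55% of 27025 genes. An ISRE match was found in 10 of the 21 interferon gamma genes (47.6%), in 13 of the 23 type I genes (56.5%) and in 3.99% of all genes, so both lists held both motifs. Matches are shown for genes whose values are given here, with the match in capitals, because these lists had the widest gaps between labels among the immune lists.
Irf1 GAS, chr11:53769914-53769942, plus strand: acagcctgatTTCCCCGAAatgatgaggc
Icam1 GAS, chr9:21015888-21015916, plus strand: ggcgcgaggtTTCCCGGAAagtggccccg
Irf8 GAS, chr8:120736177-120736205, plus strand: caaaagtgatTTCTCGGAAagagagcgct
B2m ISRE, chr2:122147538-122147567, plus strand: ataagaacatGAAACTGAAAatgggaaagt
Isg15 ISRE, chr4:156200871-156200900, minus strand: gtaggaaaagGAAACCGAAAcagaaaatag
The GAS genes Irf8 and Icam1 had log2 differences of 0.34 and 0.31 (limma adjusted p = 0.347 and 0.498), positive within each label at 0.22 and 0.24 in knockdown-labelled and 0.50 and 0.41 in control regions. The other GAS gene shown, Irf1, had only 0.03 in knockdown-labelled and 0.66 in control regions, as given above. The ISRE gene Isg15 had 0.16 (limma adjusted p = 0.947), with opposite signs in the labels as given above, and B2m, also with an ISRE match, had 0.31 (limma adjusted p = 0.827), positive in each label. For Isg15 the window shown is the middle of 3 overlapping matches. Irf8 held a further GAS match. A match is a description of the letters in the window and not a measured binding site.

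Hypoxia and glycolysis genes were lower in the rich regions without passing the test. Of 24 hypoxia genes, 8 were lower and 1 higher at an unadjusted p under 0.05, beside 4.1% lower and 1.96% higher over all genes. In the list 21 had negative differences, beside 13271 of all 19609 genes, and the median was -0.32. Egln1, an oxygen sensor induced by hypoxia, had 827 to 1197 units in the rich regions (median 946) and 982 to 2021 units in the poor regions (median 1096), a log2 difference of -0.37 (SE 0.11, limma adjusted p = 0.412). Mxi1 had -0.36, Bhlhe40 -0.35 and Fam162a -0.53. Slc2a1, the glucose transporter Glut1 that the study examined, had 436 to 1008 units in the rich regions (median 607) and 497 to 2524 units in the poor regions (median 644), a log2 difference of -0.38 (SE 0.27, limma adjusted p = 0.853). The difference was -0.10 without the control region 6 and ranged over -0.53 to -0.10 with each region left out. The angiogenic factor gene Vegfa had -0.56 (SE 0.20, limma adjusted p = 0.731). Of 18 glycolysis genes 10 were lower and 0 higher at that p, beside the same 4.1% and 1.96%, with a median of -0.30. Pgam1 had 6053 to 8640 units in the rich regions (median 7505) and 6930 to 13346 units in the poor regions (median 7909), a log2 difference of -0.34 (SE 0.10, limma adjusted p = 0.498). Tpi1 (-0.34), Gpi1 (-0.31), Eno1 (-0.36) and Ldha (-0.31) lay close to it. The control region 6 had the highest hypoxia list mean of the poor regions, and without it the median was -0.18 for hypoxia, with 5 genes lower at that p, and -0.20 for glycolysis, also with 5. In that fit 1265 of 19609 genes were past that p in either direction, beside 1188 in the main fit. The hypoxia median was -0.07 in knockdown-labelled and -0.60 in control regions, and the glycolysis median -0.18 and -0.42. The counts moved with the scaling: under 7 other scalings 0 to 8 hypoxia genes and 1 to 9 glycolysis genes were lower, with medians of -0.31 to -0.25 and -0.29 to -0.21. Over all genes, 90 to 539 of 19609 were lower under these scalings, beside 804 here. With the log2 total as a covariate 6 and 4 were lower, beside 584 of 19609 genes.

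**Figure D4:**
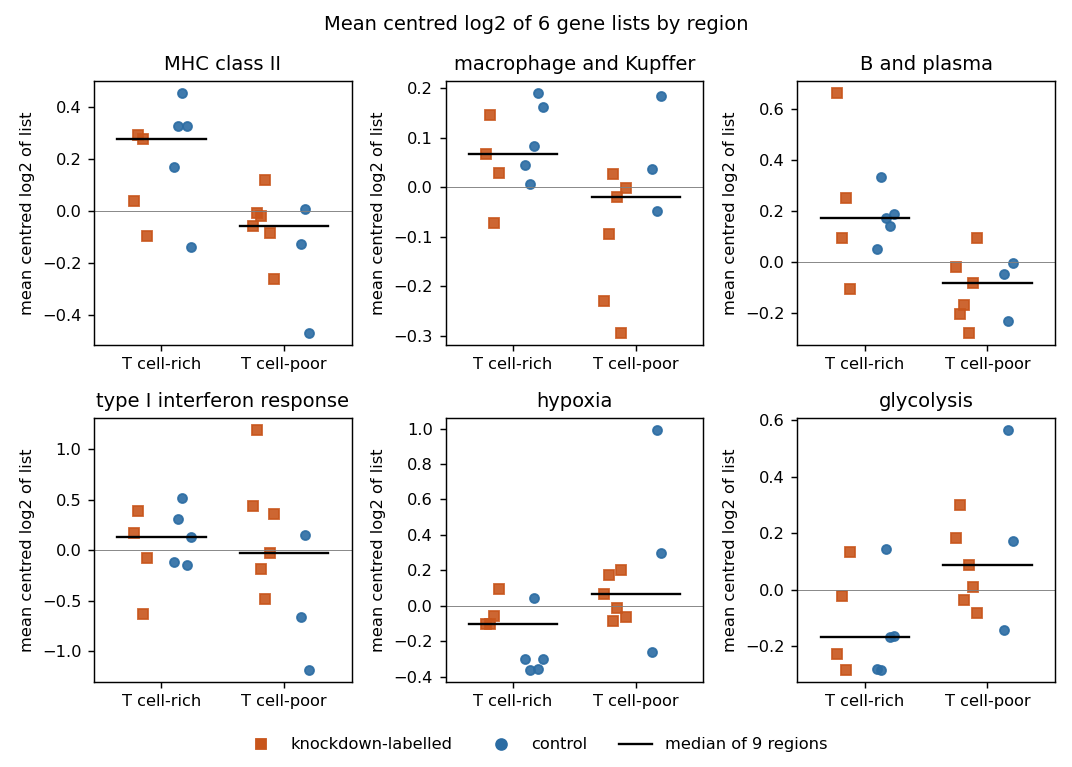
Mean centred log2 value (y axis) of the MHC class II, macrophage and Kupffer, B and plasma, type I interferon, hypoxia and glycolysis lists in the 9 T cell-rich (left) and 9 T cell-poor (right) regions, with squares for knockdown-labelled and circles for control regions and a bar at the median of the set. The sets overlap in each list, and the highest hypoxia mean is that of the control region 6 in the poor set.

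Of 22 genes of the ATF4 amino acid stress response, 22 had negative differences, 6 were lower and 0 higher at an unadjusted p under 0.05 (4.1% and 1.96% over all genes), and the median was -0.23. Over all 19609 genes, 13271 had negative differences. When regions were scaled to the same total, 6262 of all genes and 19 of the 22 had negative differences. The serine enzyme gene Psph (-0.30), the asparagine synthetase gene Asns (-0.27) and the mitochondrial gene Shmt2 (-0.24) had limma adjusted p = 0.705 to 0.814. Under the 7 other scalings 1 to 3 of the 22 were lower at that p, beside 90 to 539 of all 19609 genes. Of 24 oxidative phosphorylation genes 2 were lower, led by Uqcrq (-0.30, limma adjusted p = 0.447), and of 27 ribosomal protein genes 1, Rps27a (-0.20, limma adjusted p = 0.814). The median was -0.19 for 26 sterol and fatty acid synthesis genes (-0.42 in knockdown-labelled and 0.11 in control regions), and -0.05 for 18 ER chaperone genes. It was 0.02 for 23 TGF-beta and matrix genes, 0.05 for 22 NF-kB genes and -0.04 for 17 p53 targets. It was -0.06 for 6 red blood cell genes, 0.01 for 17 colon epithelium and keratin genes and -0.07 for 17 housekeeping genes. In these 8 lists 0 genes passed in limma, and 0 to 2 of each list were past an unadjusted p of 0.05 in either direction. Proliferation genes had 0 of 30 higher and 0 lower in limma, with a median of -0.06, beside -0.04 over all genes. Among single genes above background, the 10 lower with the smallest p were Lonrf3 (-0.32), Scpep1 (-0.35), Ptgr1 (-0.31), Borcs6 (-0.24), Sap30 (-0.37), Lonrf1 (-0.24), Gdpd1 (-0.34), Pgm1 (-0.40), Rnf19a (-0.23) and Srgap1 (-0.34). None of them passed (limma adjusted p = 0.222 to 0.393). Scpep1, a serine carboxypeptidase, had 1784 to 2509 units in the rich regions (median 2244) and 2381 to 3863 units in the poor regions (median 2751), and the sets overlapped only narrowly. Ptgr1, a prostaglandin reductase, had 205 to 295 units in the rich regions (median 265) and 238 to 402 units in the poor regions (median 295), and it also fell with the score. The share of higher genes among those with an unadjusted p under 0.05 was 32.3%, but 53.2% to 83.4% under the 7 other scalings, so the balance of directions over all genes depended on the scaling.

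Markers of liver and stroma were compared as the tissue around the tumour cells. Of 25 hepatocyte genes 0 were higher and 0 lower at an unadjusted p under 0.05 in limma, beside 1.96% and 4.1% over all genes. All 25 had positive differences, beside 6338 of all 19609 genes, and the median was 0.64 in knockdown-labelled and -0.19 in control regions. The summed level was 3581 to 19105 units in rich and 3654 to 12818 units in poor regions. Alb, the main plasma protein of hepatocytes, had 176 to 4269 units in the rich regions (median 468) and 157 to 2338 units in the poor regions (median 620), a log2 difference of 0.56 (SE 0.61, limma adjusted p = 0.892). Apoa1 had 0.59 and Cyp2e1 0.42. Region 18, knockdown-labelled, was the highest of the rich regions in the hepatocyte list, and without it the median over both labels was 0.06, beside 0.19 with it. Without the control region 6 of the poor set the median was 0.39, and 4 of the 25 were higher at that p. In that fit 1265 of 19609 genes were past that p in either direction, beside 1188 in the main fit. Thy1 and Ctsw passed with the hepatocyte list as a covariate. Of 23 fibroblast and stellate cell genes 1 rose (Thy1, which T cells also express) and 0 fell, and the collagen gene Col3a1 had 9028 to 23637 units in the rich and 8425 to 24928 units in the poor regions, a log2 difference of -0.12 (SE 0.25, limma adjusted p = 0.942). The median was 0.02 for 19 endothelial genes, where Kdr had 0.17 (limma adjusted p = 0.814), and -0.05 for 12 cholangiocyte genes, where the transcription factor gene Sox9 had -0.39 (limma adjusted p = 0.813).

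**Figure D5:**
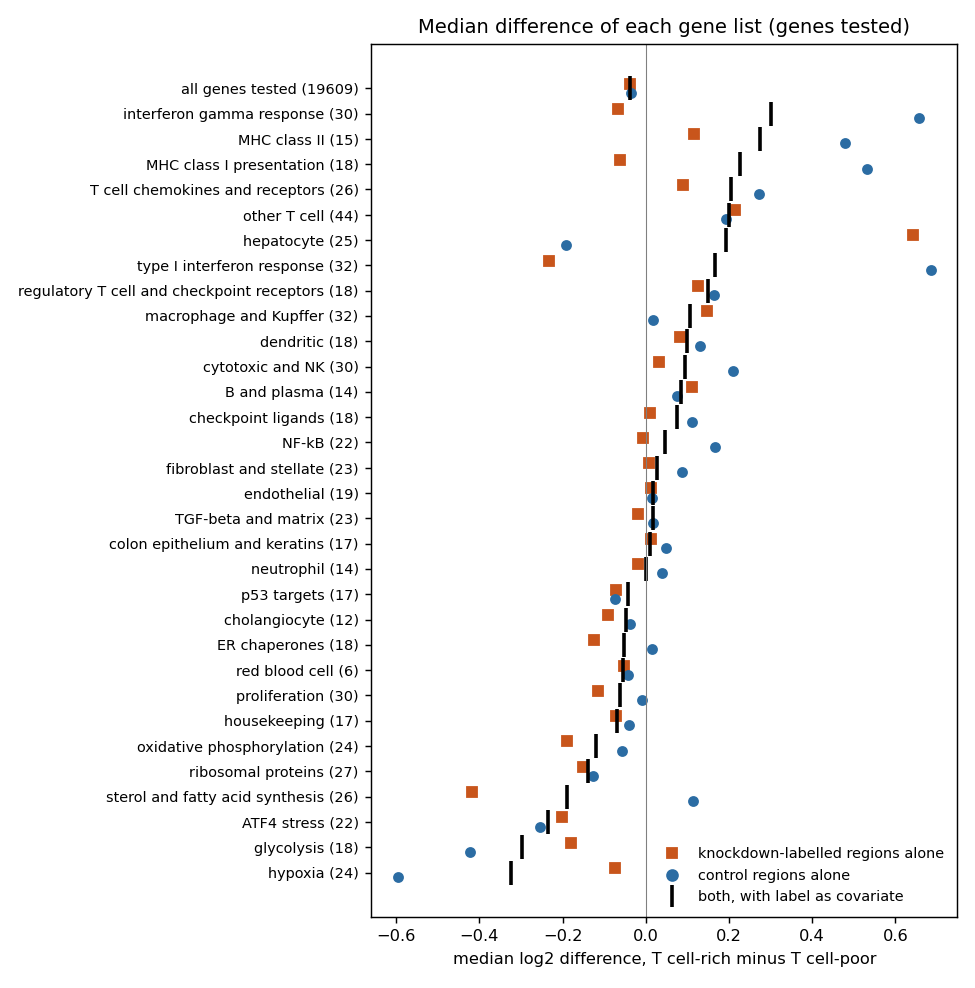
Median log2 difference, T cell-rich minus T cell-poor (x axis), of all genes tested and of each gene list (y axis, with the number of genes tested), in knockdown-labelled regions alone (squares), control regions alone (circles) and both with label as a covariate (bars). The other T cell list is at 0.21 in knockdown-labelled and 0.19 in control regions, whereas the type I interferon list is at -0.23 and 0.69 and the hepatocyte list at 0.64 and -0.19.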

How the data were processed

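The deposited signal values were made by the authors with the GeoMx DSP Analysis Suite from sequenced probe tags, 1 column per region for 19615 targets; the sources used here name no version or filter. The deposited signal had been upper-quartile normalized within each label group (upper quartile 788 in control and 539 in knockdown-labelled regions). At least 99.96% of values were whole multiples of a step within a tolerance of 0.01, and totals were 4223034 to 26328208 steps; whether a step is 1 count was not settled, so no count test was run and no counting interval is given. Groups came from the sample labels. Each region was set to a common median and log2(value + 1) was tested with limma 3.58.1 in R 4.3.3 (trend and robust, two-sided, label as covariate, Benjamini-Hochberg over 19609 genes, threshold 0.05), without a filter on low values. Fold changes are on this scale and understate those of low genes. The 6 score genes were left out of the test. Because regions were chosen by a score measured in the same libraries, and some shared an animal, p-values and SEs are too small. No set test was run. The script was tested on simulated data.

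The members, the 31 gene lists (661 of 678 genes measured) and the tests were chosen with earlier results of these data known. Genes named were the score genes, Cmtm6, Cd274, up to 15 called genes per direction above background (the 10 smallest p where fewer than 5 were called), and in each list the 4 smallest p and the 2 highest means. Outside this rule, Cd4, Cxcl9, Foxp3, Gzmb, Ifng, Ldha, Ptprc, Slc2a1 and Vegfa were named for their role, and Il2rb, Lag3, Lck, Trbc1 and the genes that fell with the score after their values were seen. Alternatives were other scalings, pseudocount, filter, background subtraction, covariates, set sizes, scores, each label alone and each region left out. Positions came from GENCODE vM21 and promoters from RefSeq.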

Additional observations from a re-analysis of the deposited data

Results flagged for a closer look

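In 264 sets of 9 values (a gene or list mean in the rich or in the poor regions), 27 had an end value set apart from its neighbour by more than Dixon's critical share of the range at the 95% level. Chance gives about 1 in 20 for independent sets. These sets share regions and genes and include the score genes that chose the regions, so 27 of 264 cannot be set against that rate. The share of the range is given for each.

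Region 23, knockdown-labelled and highest in score, was the high end of the rich regions in Cd3d (0.533), Cd3e (0.595), Trac (0.546) and Xcl1 (0.508), and the low end in Rtp4 (0.609) and Isg15 (0.515). Cd3d, Cd3e and Trac are score genes, so a high end in the region of highest score is favoured by the rule. Control region 11 was the low end of the poor regions in H2-Aa (0.503), H2-Ab1 (0.577), Cd74 (0.587) and Xcl1 (0.543), and the high end in Gas1 (0.560). Control region 6 was the high end of the poor regions in Mxi1 (0.758), Vegfa (0.611), Fam162a (0.546) and Sap30 (0.510), and in the means of the hypoxia (0.553) and p53 target (0.543) lists. Region 18, knockdown-labelled, was the high end of the rich regions in Alb (0.539), Cyp2e1 (0.659) and the hepatocyte list mean (0.606).

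Control region 4 was the low end of the rich regions in Ctsw (0.509) and Tox (0.520), and control region 13 in Gdpd1 (0.543). Region 27 was the low end of the rich regions in the endothelial list mean (0.503) and region 16 in the sterol and fatty acid synthesis list mean (0.506), both knockdown-labelled. Region 21 was the low end of the poor regions in Cxcr6 (0.619) and region 17 in Sox9 (0.558), also knockdown-labelled.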

How the results depend on the processing

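The number of genes higher in T cell-rich regions, 2, was 0 as deposited, with the same upper quartile, with housekeeping scaling, with the log2 total or the macrophage list as a covariate, and in control or knockdown-labelled regions alone. It was 4 with the same total and in limma without trend and robust, 5 with quantile normalization, 6 with TMM, with genes above background alone and with 3 sets, 7 centred on label means, 12 with background gene scaling, 13 for 13 against 13 regions, 21 with the background ratio as a covariate, 47 with the continuous score and 28 without the 3 regions of lowest total. Leaving out each region gave 0 (without region 23) to 20 (without region 27). The number lower, 0, was 1 with the hepatocyte list, 3 with the background ratio, 2 for 13 against 13 and 6 with the continuous score, and 0 to 1 with a region left out. Of the slope counts, the 6 lower became 1 with the log2 total, 27 with the background ratio and 1 with the same upper quartile; with a region left out, 20 to 60 were higher and 0 to 18 lower. The count of genes differing between labels was 0 in each of 6 alternatives.

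Of 4027 values of 94 named genes, 24 changed sign. In knockdown-labelled regions alone these were Cd274 (-0.20), Cxcl10 (-0.13), Ccl2 (-0.47), Rtp4 (-0.15), Irf7 (-0.27), Isg15 (-0.39) and Gzmb (-0.30). In control regions alone they were Alb (-0.39), Apoa1 (-0.19), Cyp2e1 (-0.0907), Col3a1 (0.19) and Ifng (-0.0138). For 13 against 13 regions they were Ccl2 (-0.0226), Isg15 (-0.13) and Ifng (-0.0157). Without control region 11 they were Ccl2 and Isg15, and with a region left out Ccl2 ranged over -0.0998 to 0.184, Isg15 over -0.0900 to 0.398 and Ifng over -0.00425 to 0.17. The rest were Isg15 with the continuous score (-0.0573), Alb for 7 against 7 (-0.0089), Col3a1 with quantile normalization (0.0012) and the hepatocyte list (0.0098), Ifng without region 16 and without the 3 regions of lowest total (-0.0616), and Foxp3 with background subtraction (0). The cause was not tested.

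No paired analysis was possible because the region numbers do not pair the labels. Leaving out the 3 regions of lowest total, and the alternatives to the slope counts, were chosen after the data were seen. Some regions shared an animal, sets were chosen from a score measured in the same libraries, and many T cell transcripts lay near the background genes.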
